A study of Mus musculus with 4 samples.

Results

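The 10 genes described here guide lymphocytes into and within the gut, and were followed across the cell types of the injured mouse jejunum. They comprised the ligands Ccl25, Ccl20, Ccl28, Ccl21a and Cxcl13 and the receptors Ccr9, Ccr6, Ccr10, Ccr7 and Cxcr5, that is, 10 of the 32286 features of each count matrix, found by gene symbol. Distal jejuna were taken 18.5 h after small intestinal ischemia and reperfusion (I/R), in which the superior mesenteric artery was clamped and then released. Control mice carried Foxc1fl/fl;Foxc2fl/fl without Cre, and EC-Foxc-DKO mice carried Cdh5-CreERT2;Foxc1fl/fl;Foxc2fl/fl, in which tamoxifen activates Cre in endothelial cells and deletes both forkhead factor genes. All were young adult males that had received tamoxifen and I/R, so the comparison is between genotypes after injury, with no uninjured group. Each group held 2 mice, and each mouse was 1 single-cell RNA sequencing library in which every captured RNA molecule carries a unique molecular identifier (UMI). The Cre reads were found in the EC-Foxc-DKO libraries only, with 8 and 5 UMIs, whereas Foxc1 gave 10 and 20 UMIs in the Control libraries and 8 and 5 in the EC-Foxc-DKO libraries, and Foxc2 gave 2 UMIs, both in Control replicate 2. Reads at the 3′ end of a transcript and counts this low do not show how completely the genes were deleted.

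Chemokines are small secreted proteins that bind receptors on the surface of leukocytes and direct where they move. CCL25, made by the small intestinal epithelium, binds CCR9 and draws T cells and IgA-producing plasma cells to the small bowel. CCL28 binds CCR10 and draws IgA-producing plasma cells to mucosal surfaces, and CCL20 binds CCR6 on B cells, on IL-17-producing T cells and on other cells of lymphoid follicles. CCL21 from lymphatic vessels and lymphoid stroma binds CCR7 and brings naive lymphocytes and dendritic cells into lymphoid tissue, where CXCL13 from stromal cells binds CXCR5 and holds B cells in follicles. Each ligand is thus described below with the receptor it binds.

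The 4 libraries held 22679 barcodes with 15557181 to 72046346 UMIs each. Of these, 5615 cells had at most 10% of their UMIs on mitochondrial genes and were kept, 1446 and 348 in Control jejuna and 2742 and 1079 in EC-Foxc-DKO jejuna. The libraries differed in make-up and depth. Follicular B cells were 43.9% of the cells of EC-Foxc-DKO replicate 1 against 3.06% to 8.51% in the other mice, and the median UMIs of a kept cell ran from 4254.5 to 19871. In all, 51 barcodes occurred in 2 libraries, and 2 of them were kept in both. The cells fell into 23 types named from markers that did not include the 10 genes, with 287 cells (5.11%) left unnamed. Levels below are UMIs of a gene per 1000000 UMIs (CPM) of all cells of that type in a mouse, and types with under 5 cells in a mouse give no level for it. Where values of all mice follow each other, the Control replicates 1 and 2 come first and the EC-Foxc-DKO replicates 1 and 2 after them, without mice that give no level. Limits from a count of 0 cover counting error only.

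Ccl25 was by far the most abundant of the 10 genes, with 44308 UMIs in the kept cells, whereas the other members had between 133 UMIs for Ccl20 and 1477 for Ccr7. Between 17.4% (Ccr10) and 43.0% (Cxcl13) of a member's UMIs lay in barcodes above the mitochondrial limit, which the values below do not use. The symbol Ccl21a belongs to 2 features. That on chr4:42772860-42773993 on the minus strand held all 678 Ccl21a UMIs, and the copy on an unplaced scaffold held 0, as did all features named Ccl21b and Ccl21c. These genes are near-identical copies, so the counts of Ccl21a are uncertain as to which copy was transcribed.

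**Figure D1:**
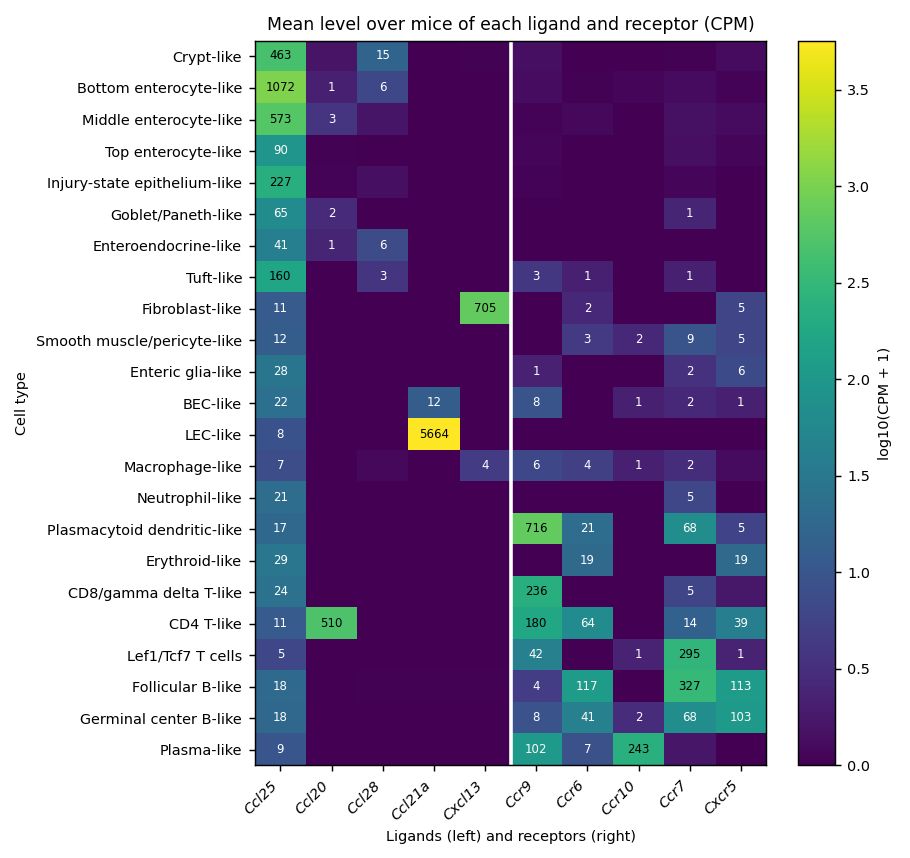
Each square is the mean over mice of the level of a gene (columns, ligands left and receptors right) in a cell type (rows), colored by log10(CPM + 1) and printed where it reached 1 CPM. Ccl25 filled the epithelial rows with its highest mean of 1072 CPM in Bottom enterocyte-like cells, Ccl21a stood almost alone in LEC-like cells, and the 510 CPM of Ccl20 in CD4 T-like cells came from a single cell, as did the values of Ccr6 and Cxcr5 in Erythroid-like cells.

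The sequence before the transcription start differed among the 5 ligands. The 150 bases before each RefSeq start on build GRCm38.p6 are shown because the ligands, not the receptors, set the place to which cells are drawn, and Ccl25 is shown with both of its starts. Capitals mark the motif TATAAA or its reverse complement, and the forkhead motif GTAAACA was searched on both strands as well. The windows lie at chr8:4325060-4325209 and chr8:4349438-4349587 (plus strand, Ccl25), chr13:119623669-119623818 (plus, Ccl28), chr1:83116616-83116765 (plus, Ccl20), chr4:42773992-42774141 (minus, Ccl21a) and chr5:95956789-95956938 (plus, Cxcl13).
Ccl25 first start: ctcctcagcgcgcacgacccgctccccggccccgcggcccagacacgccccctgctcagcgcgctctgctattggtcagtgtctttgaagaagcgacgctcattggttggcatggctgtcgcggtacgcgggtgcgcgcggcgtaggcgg
Ccl25 second start: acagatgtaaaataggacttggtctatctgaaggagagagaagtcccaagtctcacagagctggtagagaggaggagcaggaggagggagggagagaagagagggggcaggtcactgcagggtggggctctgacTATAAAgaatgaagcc
Ccl28: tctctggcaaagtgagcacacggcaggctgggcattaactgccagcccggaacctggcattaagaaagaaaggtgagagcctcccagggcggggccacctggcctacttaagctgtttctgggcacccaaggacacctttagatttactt
Ccl20: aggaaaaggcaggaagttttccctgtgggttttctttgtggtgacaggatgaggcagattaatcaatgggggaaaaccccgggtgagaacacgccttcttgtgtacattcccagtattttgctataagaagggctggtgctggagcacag
Ccl21a: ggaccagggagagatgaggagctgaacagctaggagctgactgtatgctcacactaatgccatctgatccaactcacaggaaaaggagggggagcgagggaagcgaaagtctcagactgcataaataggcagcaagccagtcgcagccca
Cxcl13: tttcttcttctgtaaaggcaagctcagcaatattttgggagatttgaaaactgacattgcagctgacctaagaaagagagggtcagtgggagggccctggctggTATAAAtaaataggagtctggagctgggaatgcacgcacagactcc
The first start of Ccl25 was rich in CG dinucleotides, with 21 in its window, whereas the second held 0 and the median over 32851 such windows was 4. The second start of Ccl25 and the start of Cxcl13 held TATAAA, which 7.57% of all windows held in either orientation. The letters GTAAACA or their reverse complement were in none of these 6 windows and in 1.80% of all windows. The paper used the wider motifs RYMAAYA and RYACACA, which were not searched, so forkhead sites of other letters are not covered. The letters ATAAATA, a form of RYMAAYA that the paper marks at RSPO3 and CXCL12, are in the Ccl21a and Cxcl13 windows. In the Cxcl13 window these letters overlap the marked TATAAA. Their share of all windows was not counted, so their presence is no result about these genes.

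Among epithelial cells, Ccl25 was highest in Bottom enterocyte-like cells, the absorptive cells of the lower villus. They joined a cluster of 620 cells led by Reg3a with a cluster of 257 cells led by Fabp6, in which 7 of 10 Bottom enterocyte markers and 3 of 10 Crypt markers were detected but whose leading genes held no Bottom enterocyte marker and 1 Crypt marker, Dmbt1. Values are therefore also given for each cluster. The joint level was 1225 and 1222 CPM in Control jejuna and 1082 and 758 CPM in EC-Foxc-DKO jejuna, a mean of 1072 ± 220 CPM (SD, n = 4). They held 71.8% of the Ccl25 UMIs of all named types. Both Control mice were above both EC-Foxc-DKO mice, and EC-Foxc-DKO replicate 2 was the lowest. The share of all genes that separated the mice in this way was not counted, so the separation is no result about Ccl25.

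Ccl25 was lower in the types that their marker names place on either side, although no cell position was measured. Middle enterocyte-like cells had 566, 584 and 569 CPM in the 3 mice with enough cells, and Crypt-like cells, the dividing epithelium, had 643, 401, 479 and 328 CPM. The ranges of those types overlapped each other, but neither reached the lowest joint value of Bottom enterocyte-like cells. Of the cluster led by Reg3a alone, the lowest mouse, at 602 CPM, was within the range of Crypt-like cells. Top enterocyte-like cells, at the villus tip, had only 57.6, 109, 81.7 and 111 CPM, so that the level in Bottom enterocyte-like cells of the same mouse was 21.3, 11.2, 13.2 and 6.85 times as high. Injury-state epithelium-like cells, marked by Sprr and Gml genes, lay between, with 244, 277 and 160 CPM. A single cell of Control replicate 1 held 207 of the 1641 Ccl25 UMIs of this type, so the 244 CPM rests in part on that cell.

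The secretory lineages carried little Ccl25. Goblet/Paneth-like cells had a mean of 64.6 ± 24.6 CPM (SD, n = 3) and Enteroendocrine-like cells, which make gut hormones, 40.8 ± 27.6 CPM (n = 4). A single cell held 33 of the 132 UMIs of the former and 13 of the 43 UMIs of the latter. In Tuft-like cells the mean of 160 CPM rested on few cells, since only 19 of 66 cells had any of the 255 UMIs and 1 cell of EC-Foxc-DKO replicate 1 held 89. Ccl25 was also counted in cells that are not known to make it. Over all named types outside the epithelium it was 18.8, 11.1, 15.3 and 9.58 CPM, and 5.13% to 10.5% of these cells had a UMI at median depths of 3559 to 5880 UMIs. In the epithelium, 72.8% to 84.0% of cells had a UMI at median depths of 24169 to 27446.5. Where it occurred in CD8/gamma delta T-like, Follicular B-like and Macrophage-like cells, a cell held at most 2 UMIs. The most in 1 cell was 3 of 11 UMIs in Germinal center B-like cells and 7 of 14 in Enteric glia-like cells. Whether these low shares are background was not tested.

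**Figure D2:**
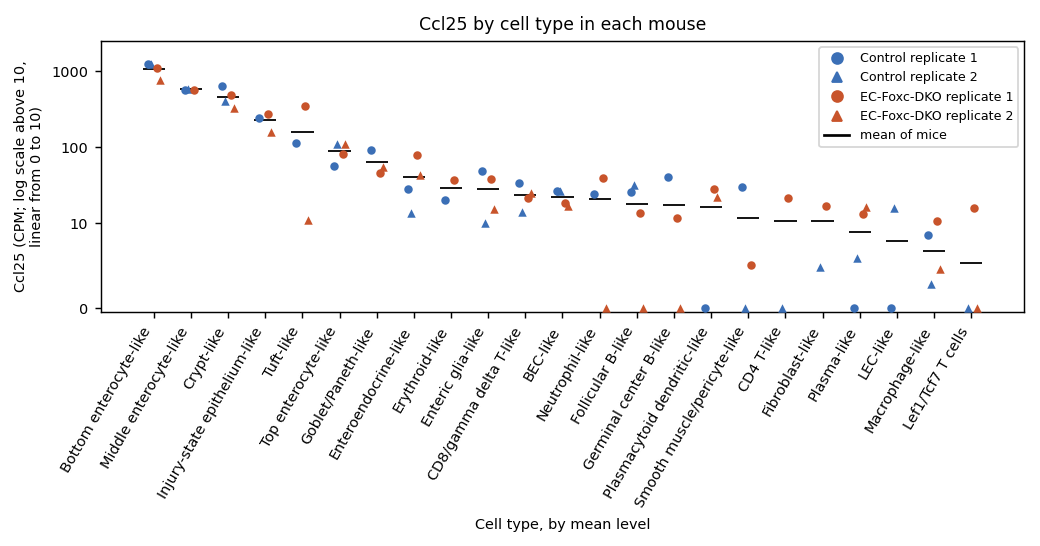
Ccl25 in CPM (vertical axis, logarithmic above 10 and linear from 0 to 10) is shown for each cell type in order of its mean, with 1 point per mouse (blue Control, orange EC-Foxc-DKO, circle replicate 1, triangle replicate 2) and a line at the mean. Bottom enterocyte-like cells lay at 758 to 1225 CPM, above every other type, and the types outside the epithelium lay mostly below 50 CPM.

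Ccl28 had its highest level in Crypt-like cells. It was 14.7 and 14.6 CPM in Control jejuna and 16.8 and 15.7 CPM in EC-Foxc-DKO jejuna, a mean of 15.5 ± 1.01 CPM (SD, n = 4). The 4 mice differed by little more than 2 CPM, but Control replicate 2 had only 7 UMIs in 13 cells, and 3 counts there are 6.27 CPM. This closeness is therefore no measure of precision. Bottom enterocyte-like cells had 5.83, 5.43, 6.21 and 4.59 CPM, all below the Crypt-like values, but being more numerous they held 49.0% of the Ccl28 UMIs against 43.7% in Crypt-like cells. Within Bottom enterocyte-like cells, those led by Fabp6 had 9.14, 14.9, 8.72 and 7.11 CPM and those led by Reg3a 5.05, 3.32, 5.45 and 1.71 CPM, although the value in Control replicate 2 rested on 3 UMIs in each. Middle enterocyte-like cells had only 9 Ccl28 UMIs in 367 cells, and Top enterocyte-like and Goblet/Paneth-like cells had 0 UMIs in 416 and 127 cells. Enteroendocrine-like cells had 14.2, 0, 3.91 and 7.13 CPM, from 5 UMIs or fewer in a mouse, and the count of 0 allows up to 41.6 CPM. Tuft-like cells had 4.78, 3.48 and 0 CPM, from 2 UMIs or fewer in a mouse.

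Ccl20, which the epithelium over lymphoid follicles and inflamed epithelium is known to make, was rare in these libraries. It gave 133 UMIs in 38 of the 5615 kept cells. The 35 UMIs in CD4 T-like cells all lay in 1 cell of Control replicate 2, so the level of 1020 CPM there describes 1 cell and was 0 in the other mouse with enough cells. In Middle enterocyte-like cells, 36 UMIs lay in 3 cells and 1 cell held 18. In Bottom enterocyte-like cells, 44 UMIs lay in 20 cells and 1 cell of Control replicate 1 held 24. With these cells included, the whole epithelium had 2.22 and 0.500 CPM in Control jejuna and 1.22 and 0.514 CPM in EC-Foxc-DKO jejuna, and no type could be ranked for Ccl20.

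Ccl21a was a gene of LEC-like cells, the lining of lymphatic vessels. All 18 LEC-like cells had at least 1 UMI, and together they held 450 UMIs, 96.4% of those in named types. The levels were 6883 and 4444 CPM in the Control mice, from 5 and 10 cells, and 1 cell of Control replicate 1 held 77 of its 150 UMIs. EC-Foxc-DKO replicate 1 gave 3 LEC-like cells with 21 UMIs, and EC-Foxc-DKO replicate 2 gave 0 LEC-like cells, so no level is given there. BEC-like cells, the lining of blood vessels, had 20.2, 0, 27.9 and 0 CPM, with 15 UMIs in 3 of 171 cells, and Bottom enterocyte-like cells had 1 UMI in 877 cells. The number of LEC-like cells is too small to compare their Ccl21a between genotypes.

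Cxcl13 was a gene of Fibroblast-like cells, which made up most of the stroma. Enough of these cells for a level came from Control replicate 2, with 865 CPM, and from EC-Foxc-DKO replicate 1, with 545 CPM. Many of the cells showed none of the transcript, since 15 of 30 cells and 18 of 41 cells of these mice had a UMI, and 1 cell of Control replicate 2 held 50 of its 179 UMIs. Smooth muscle/pericyte-like cells, the other stromal type, had 0 UMIs in 45 cells, and 3 counts, the limit that a count of 0 allows, would be 15.4 to 59.5 CPM in the 3 mice with enough of them. Macrophage-like cells had 8 UMIs in 2 of 387 cells. The remaining mice had 3 and 1 Fibroblast-like cells, and the part of this small number in the low Cxcl13 of those libraries was not tested.

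Ccr9, the receptor of CCL25, was highest in Plasmacytoid dendritic-like cells, which make type I interferon. They had 761, 969 and 417 CPM in the 3 mice with enough cells. The CD8/gamma delta T-like cells, the cytotoxic T cells of the epithelium, followed with 255 and 128 CPM in Control jejuna and 258 and 304 CPM in EC-Foxc-DKO jejuna, and they held 48.4% of the Ccr9 UMIs. A Ccr9 UMI was found in 225 of their 409 cells (55.0%) at a median depth of 4435 UMIs, against 9 of 877 Bottom enterocyte-like cells (1.03%) at 31730 UMIs. CD4 T-like cells had 87.4 and 272 CPM, and Plasma-like cells 86.9, 76.9, 66.9 and 175 CPM. The 87.4 CPM came from 1 of 8 cells and equals the 3 counts that a count of 0 allows. In Lef1/Tcf7 T cells, T cells led by these factors of the naive and memory state, the mean was 42.0 ± 41.1 CPM (SD, n = 3). A Ccr9 UMI was found in 1 of 7 of them in Control replicate 2, and in 9 of 49 and 0 of 10 in the EC-Foxc-DKO mice. The ranges of CD8/gamma delta T-like, CD4 T-like and Plasma-like cells overlapped, so that Plasmacytoid dendritic-like cells alone stood above the next type.

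Ccr10, the receptor of CCL28, was almost confined to Plasma-like cells, which were led by the IgA heavy chain gene Igha and by Jchain. Their levels were 261 and 201 CPM in Control jejuna and 303 and 208 CPM in EC-Foxc-DKO jejuna, a mean of 243 ± 47.7 CPM (SD, n = 4), and they held 93.6% of the Ccr10 UMIs of named types. The genotypes overlapped. No other type had a mean above 2 CPM, and Follicular B-like cells had 0 UMIs in 1376 cells, which in EC-Foxc-DKO replicate 1 with 1203 of them allows a share of cells with a UMI of up to 0.249%. Of the 47 Plasma-like cells, 36 had a Ccr10 UMI, 27 a Ccr9 UMI and 23 both, that is, 63.9% of the cells with Ccr10 and 85.2% of those with Ccr9. Cells with both receptors were found in each of the 4 mice.

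Ccr7, the receptor of CCL21, was highest in Follicular B-like cells and in Lef1/Tcf7 T cells, whose ranges overlapped. Follicular B-like cells had 370 and 189 CPM in Control jejuna and 231 and 519 CPM in EC-Foxc-DKO jejuna. Lef1/Tcf7 T cells had 356 CPM in Control replicate 2 and 211 and 318 CPM in the EC-Foxc-DKO mice. The CD8/gamma delta T-like cells stood far lower, at a mean of 5.05 ± 5.98 CPM (SD, n = 4), with a UMI in 3 of 409 cells. Between Lef1/Tcf7 T cells and CD8/gamma delta T-like cells, the mean levels of Ccr7 and Ccr9 thus had opposite orders. Lef1/Tcf7 T cells were higher for Ccr7 and lower for Ccr9, and CD4 T-like cells are left out of this order. For Ccr9 in Lef1/Tcf7 T cells, Control replicate 2 had 3 UMIs in 1 cell. The count of 0 in EC-Foxc-DKO replicate 2 allows up to 106 CPM. Germinal center B-like cells, the dividing B cells of follicles, had 164, 13.4 and 26.6 CPM of Ccr7, the first of them from 8 UMIs in 1 cell.

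Cxcr5 and Ccr6, the receptors of CXCL13 and CCL20, also had their highest means in Follicular B-like cells. Cxcr5 was 177, 63.0, 130 and 81.4 CPM in Follicular B-like cells and 164, 77.2 and 69.1 CPM in Germinal center B-like cells, and these ranges overlapped. Ccr6 was 93.0, 126, 126 and 122 CPM in Follicular B-like cells, above the 58.3 and 70.7 CPM of CD4 T-like cells, and above the 41.0, 35.6 and 47.8 CPM of Germinal center B-like cells. The 58.3 CPM and the 41.0 CPM were each 2 UMIs in 1 of 8 cells, under the 3 counts that a count of 0 allows, so CD4 T-like and Germinal center B-like cells cannot be ranked. In the EC-Foxc-DKO mice, where Germinal center B-like cells had 24 and 9 Ccr6 UMIs, they were below Follicular B-like cells. In EC-Foxc-DKO replicate 2 the 122 CPM of Follicular B-like cells came from 12 UMIs in 6 of 33 cells. A single cell held 7 of these UMIs, so that mouse does not rank the types. The means of Cxcr5 were 113 ± 51.0 and 103 ± 52.5 CPM (SD, n = 4 and 3). CD4 T-like cells had 10 Cxcr5 UMIs in 8 of 47 cells. Plasma-like cells had 0 Cxcr5 UMIs, and Ccr6 averaged 7.39 CPM there. Of 1376 Follicular B-like cells, 652 had a Ccr7 UMI, 484 a Cxcr5 UMI and 436 a Ccr6 UMI at a median depth of 3248 UMIs. In Bottom enterocyte-like cells, 1.14%, 0.342% and 0.228% of cells had such a UMI. After thinning every cell to 1000 UMIs, 20.5%, 12.3% and 10.9% of Follicular B-like cells would show each receptor, against 47.4%, 35.2% and 31.7% as counted, so most cells with no UMI cannot be called negative.

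**Figure D3:**
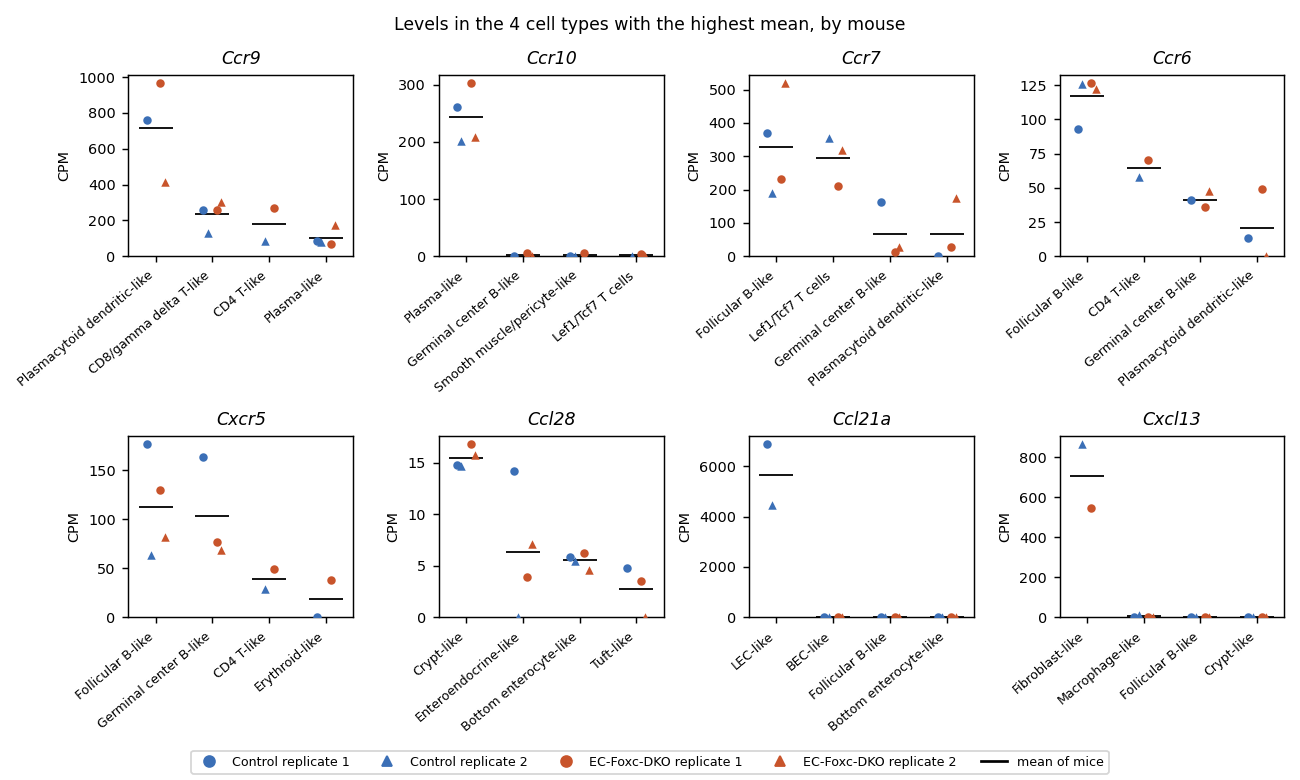
Each panel shows 1 gene in CPM in the 4 cell types with its highest means, with 1 point per mouse (blue Control, orange EC-Foxc-DKO, circle replicate 1, triangle replicate 2) and a line at the mean. Ccr10, Ccl21a and Cxcl13 had a single type above the rest, whereas Ccr7 and Cxcr5 were shared by 2 types whose mice overlapped.

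The genes whose levels followed those of a member most closely over the 23 types were taken by Pearson's r of log2(CPM + 10), as a description, since all types of a mouse share its library. Slc39a5, a zinc transporter, was the nearest to Ccl25 (r = 0.977), followed by Otc, an enzyme of the urea cycle, and Adgrg7. The lymphatic gene Mmrn1, also a marker used to name LEC-like cells, was the nearest to Ccl21a (r = 0.999). Mfap4, Scara5 and Mfap5, genes of matrix and fibroblasts, were the nearest to Cxcl13 (r = 0.998 for the first). Ccl21a, Cxcl13 and Ccr10 each stood high in a single type, which largely sets their r. Ccr6 and Cxcr5 were near each other (r = 0.935), and Blk, a kinase of B cells, was near both. The genes nearest to Ccr7 were Satb1 (r = 0.929), Tmem108 and Fam169b, and those nearest to Ccr9 were Sla2 (r = 0.951), Spn and Sh2d1b1. Immunoglobulin variable genes such as Igkv5-48 were the nearest to Ccr10 (r = 0.998), Gm12320, Agmat and Efna4 to Ccl28 (r = 0.972 for the first), and Csf2, Lingo4 and Il10 to Ccl20 (r = 0.979 for the first), the last resting on the 1 cell named above.

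Whether deletion of Foxc1 and Foxc2 in endothelial cells altered these genes was tested with edgeR on counts summed per mouse. No member passed an adjusted p of 0.05 in any of the 11 populations tested. The members that passed the filter on low counts were all 10 in all kept cells, 5 in B lineage cells, 3 each in epithelial and in Follicular B-like cells, 2 each in T cells, Bottom enterocyte-like and Crypt-like cells, 1 in CD8/gamma delta T-like cells, and 0 in Macrophage-like, BEC-like and Enteric glia-like cells. Of all genes tested in the same way, 0% were called in 10 populations and 0.0393% in T cells, where the 2 genes called were Cd74 and Ifng, which are no members and were named after their values were seen. At an unadjusted p under 0.05 the tool counted 54 of 14915 genes in all kept cells, 170 of 12347 in epithelial cells, 170 of 5092 in T cells and 89 of 5225 in B lineage cells. At an adjusted p of 0.05, edgeR called 0, 0, 2 and 0 genes in these populations and DESeq2 7, 9, 2 and 3. With 2 mice against 2, an exact permutation test of a single value cannot give a p below 0.333.

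The member nearest to a difference in 1 cell type was Ccl25. In Bottom enterocyte-like cells both EC-Foxc-DKO mice were below both Control mice, at a log2 fold change of -0.42 ± 0.21 (SE) and an adjusted p of 0.932 by edgeR. How many of all genes separated the mice so was not counted. Without EC-Foxc-DKO replicate 1 the change of Ccl25 was -0.67, in a fit that takes the spread of the Control mice for the single EC-Foxc-DKO mouse left. This mouse, EC-Foxc-DKO replicate 2, also had another mix of these cells, with 176 of 377 led by Fabp6 against 44 of 277, 6 of 38 and 31 of 185 in the others. Fitted alone, the cells led by Reg3a gave -0.44 ± 0.30 and those led by Fabp6 -0.46 ± 0.27, with adjusted p of 0.999 and 0.9997 by edgeR, a split chosen after seeing the data. Ccl25 was lowest in this mouse within each part. It was 602 CPM against 1183, 1187 and 1059 CPM in cells led by Reg3a, and 895 CPM against 1403, 1379 and 1157 CPM in those led by Fabp6. In Crypt-like cells the change was -0.39 ± 0.34 and in all epithelial cells -0.42 ± 0.35, and neither passed the test (adjusted p = 0.9996 and 1.00 by edgeR). Ccl28 changed by -0.10 ± 0.37 in Bottom enterocyte-like and 0.12 ± 0.37 in Crypt-like cells.

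Of the receptors, Ccr9 in CD8/gamma delta T-like cells had both EC-Foxc-DKO mice above both Control mice, at a log2 fold change of 0.56 ± 0.30 that did not pass the test (adjusted p = 0.998 by edgeR), with Control replicate 1 and EC-Foxc-DKO replicate 1 nearly equal. Here too the share of all genes that separated the mice was not counted. Leaving out Control replicate 2 gave 0.16, and leaving out Control replicate 1 gave 1.11. Ccr7 in all T cells was 8.84 and 30.7 CPM in Control jejuna and 48.1 and 47.1 CPM in EC-Foxc-DKO jejuna. The 8.84 CPM equals the 3 counts that a count of 0 allows, and how many of all genes separated the mice so was not counted. The log2 fold change of Ccr7 was 1.24 ± 0.47, with an adjusted p of 0.999 by edgeR. The change became 0.65 when Control replicate 1 was dropped and 2.49 when Control replicate 2 was dropped. The Lef1/Tcf7 T cells were 2.90% and 9.21% of the T cells of the Control mice and 16.5% and 12.2% of those of the EC-Foxc-DKO mice, and their part in that value was not tested. In Follicular B-like cells Ccr6, Ccr7 and Cxcr5 changed by 0.41, 0.24 and -0.18, each with an SE of 0.37 to 0.39 and an adjusted p of 0.9995. In B lineage cells Ccr10 changed by -1.36 ± 0.79 (adjusted p = 0.9997). Without Control replicate 1 the change was -2.12, and leaving out EC-Foxc-DKO replicate 2 gave -2.47, in fits with a single mouse left in a group. Plasma-like cells were 5 of 136 and 8 of 29 B lineage cells in the Control mice. They were 18 of 1291 and 16 of 69 in the EC-Foxc-DKO mice, and their part in the change was not tested.

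**Figure D4:**
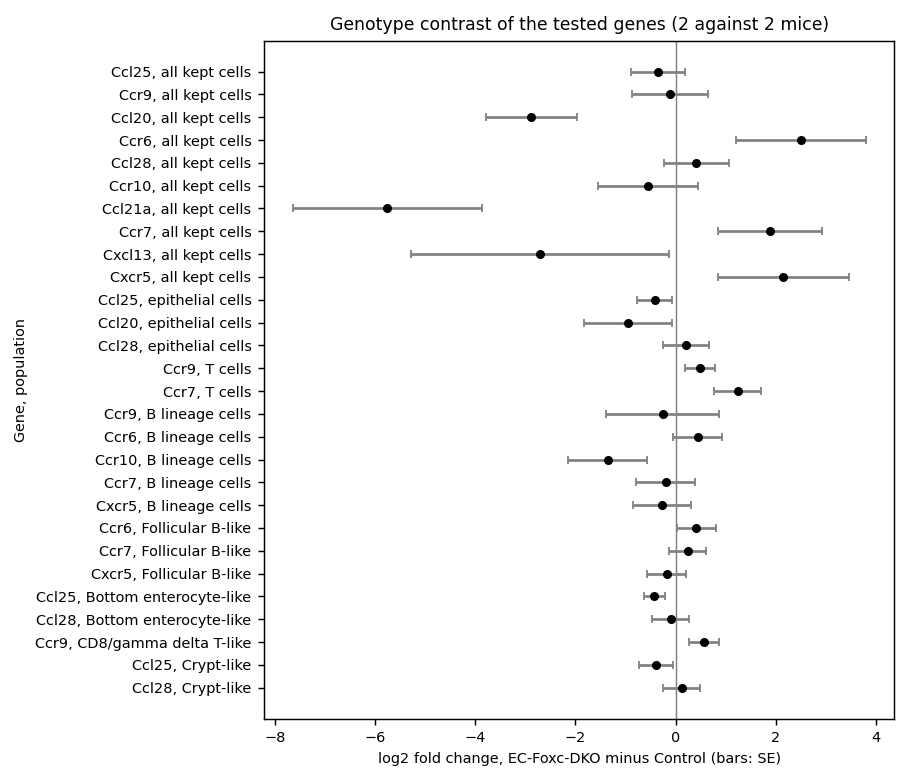
Points are log2 fold changes of EC-Foxc-DKO minus Control (horizontal axis) and bars their SE, for each member and population that passed the filter on low counts, with 2 mice in each group. None passed the adjusted test, and the widest bars, such as that of Cxcl13 at -2.71 ± 2.58, belong to all kept cells.

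In all kept cells, fewer cells of a type and less RNA per cell cannot be told apart. Ccl21a was 5.18 and 71.2 CPM in Control jejuna and 1.19 and 0 CPM in EC-Foxc-DKO jejuna (log2 fold change -5.75 ± 1.88, adjusted p = 0.9999), beside 5, 10, 3 and 0 LEC-like cells. Leaving out Control replicate 2 gave -3.30, and dropping EC-Foxc-DKO replicate 1 gave -12.14, a fit in which the EC-Foxc-DKO count is 0 and the value is no bound. Without the filter on low counts its adjusted p was 0.00356, on a count of 0 in 1 mouse. Ccl20 was 2.03 and 9.19 CPM in Control jejuna and 0.843 and 0.475 CPM in EC-Foxc-DKO jejuna (-2.88 ± 0.90, adjusted p = 0.9999), where 35 of the 36 UMIs of Control replicate 2 came from the 1 CD4 T-like cell. Ccr6, Ccr7 and Cxcr5 had changes of 2.50, 1.88 and 2.15. Without EC-Foxc-DKO replicate 1 the changes were -0.60, -0.47 and -1.12. That mouse also had the most Follicular B-like cells, whose part in the changes was not tested.

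Other genes of gut homing were read in the same fits. They included the integrins Itga4, Itgb7, Itgae and Itgal, the addressin Madcam1 that binds the integrin of Itga4 and Itgb7, the receptors S1pr1, Gpr15, Cxcr3 and Cxcr6, the chemokines Ccl19, Ccl21b, Ccl27a and Cxcl16, the scavenging receptors Ackr2 and Ackr4, and Lta, Ltb, Ltbr, Tnfsf11 and Tnfrsf11a of lymphoid tissue formation. Of these 21 genes, 16 passed the filter in all kept cells, 8 in epithelial, 9 in T and 7 in B lineage cells, and 0 passed the test in either direction in any population. Their median log2 fold change in all kept cells was -0.17, beside -0.08 over all genes tested. The most counted were Ltb, a lymphotoxin chain of lymphocytes, at 556, 161, 4575 and 209 UMIs, its receptor Ltbr at 1981, 177, 1291 and 1726 UMIs, and Cxcl16 at 1798, 189, 1041 and 779 UMIs. Their log2 fold changes were 1.58 ± 1.19, 0.14 ± 0.53 and -0.60 ± 0.42, each with an adjusted p of 0.9999 by edgeR.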

How the data were processed

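Single-cell RNA sequencing of the distal jejunum of 4 mice was analysed. The authors deposited 1 matrix of UMI counts for each mouse, with genes in rows and cell barcodes in columns, made with 10x Genomics 3′ chemistry and Cell Ranger on mm10 with Cre added. The submitters' processing notes name Cell Ranger 4.0.0, and the study's methods name another version. A joined table of the 4 libraries served only to list the 18407 genes over which the mitochondrial share was taken.

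Cells with over 10% mitochondrial UMIs were removed. Each cell was scaled to 10000 UMIs and log-transformed, and 2730 variable genes, without the members, gave 15 principal components, a graph of 15 neighbors and Leiden clustering at a resolution of 0.5 (scanpy 1.11.5, leidenalg 0.10.2). Of 22 clusters, 5 in which at least 75% of the markers of more than 1 type were detected were clustered again, giving 33 parts. A marker was detected at 2 times the level of other cells and in 10% of cells. Clusters were named from fixed marker lists and called X-like, so a difference from the study may come from rebuilt names. The Lef1/Tcf7 T cells held all CD4 T cell markers but were led by Cd8b1, and are called by their genes. Doublets were kept, since Scrublet's own threshold marked only 16 cells, and the 292 highest scores were removed as an alternative.

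Counts were summed per mouse and population and tested with edgeR 4.0.16 (filterByExpr, TMM, glmQLFit, glmQLFTest), with Benjamini-Hochberg adjustment over all genes of a population and a threshold of 0.05, and with DESeq2 1.42.0 as an alternative. Single types were tested with at least 10 cells in every mouse, which 7 types had. The SE is the size of the log2 fold change divided by the square root of F. Levels by cell type have no test, because cells were clustered on the same data. Thinned shares are the expected share of cells with a UMI after drawing 1000 UMIs, without shallower cells. A count of 0 allows up to 3 counts. The fit was tested on simulated data with a fixed spread between mice that was not taken from these data. At a log2 change of 1 it called 16.4%, 25.4% and 15.9% of the changed genes in all kept, epithelial and B lineage cells. At a log2 change of 2 it called 100%, 98.5% and 86.7%. The changed genes all lay above the median level. With this choice and the fixed spread, the shares do not show how large a change of the members could have been found in these mice. The text names all members, the 3 genes nearest to each member with at least 50 UMIs, and the homing genes that passed the test or else the 3 most counted. Members and lists were chosen with earlier results of these data known. Promoter sequences are from RefSeq (GRCm38.p6), which matched 7 of the 10 genes, and gene positions from GENCODE. p-values measure the spread between 2 mice per group. A gene of the homing list is not reported here.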

Additional observations from a re-analysis of the deposited data

Results flagged for a closer look

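The barcodes removed by the mitochondrial limit were not among the kept cells whose levels and fits the report gives. Of the 10 members, 4 receptors were higher there in both EC-Foxc-DKO mice than in either Control mouse, and are listed for that reason. The share of all genes that separated the mice in this way was not counted, so the 4 are no result about the members. For Ccr7 the level was 7.77 and 28.5 CPM in the EC-Foxc-DKO mice against 1.03 and 2.66 CPM in the Control mice. Cxcr5 was 3.61 and 11.6 CPM against 0.457 and 1.20 CPM, and Ccr6 was 4.08 and 5.45 CPM against 0.361 and 1.80 CPM. For Ccr10 the values were 0.193 and 2.43 CPM against 0.120 and 0.172 CPM, and all but the 2.43 CPM rested on 7 UMIs or fewer. Unlike in the kept cells, where EC-Foxc-DKO replicate 1 had the highest level of Ccr7, Cxcr5 and Ccr6, EC-Foxc-DKO replicate 2 was the highest in the removed barcodes. The Follicular B-like cells, which lead these 3 genes, numbered 123, 17, 1203 and 33 in the order of Control and then EC-Foxc-DKO replicates within the 10% limit and 144, 47, 1390 and 238 within a 20% limit, so that more of them were added in the EC-Foxc-DKO mice. Their part in these values was not tested, and neither were the differences.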

How the results depend on the processing

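With 2 mice in each group, the counts of genes called depended on the setting, while the 10 members were called in few settings. Of 322 alternative values of 28 member contrasts, 285 kept their direction and their side of the threshold, 33 turned direction and 4 newly passed. These 4 were Ccl25 in Bottom enterocyte-like cells (-0.67 without EC-Foxc-DKO replicate 1), Ccr10 in B lineage cells (-2.12 without Control replicate 1, -2.47 without EC-Foxc-DKO replicate 2) and Ccl21a in all kept cells (-5.70 without the filter). The first 3 come from fits with a single mouse left in a group. In each of these fits other genes were called as well, with counts or ranges of counts below. Their shares of all genes tested in the same fits are not given, so the 4 are no result about the members. Shallow libraries, few LEC-like and Fibroblast-like cells and the many barcodes above the mitochondrial limit bound what can be seen.

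Without the filter on low counts, edgeR called 14 genes in all kept cells, 88 in epithelial, 39 in T, 46 in B lineage, 4 in Follicular B-like, 223 in Bottom enterocyte-like, 28 in CD8/gamma delta T-like, 41 in Macrophage-like, 99 in Crypt-like, 57 in BEC-like and 50 in Enteric glia-like cells. DESeq2 called 7 in all kept, 9 in epithelial, 3 in B lineage, 7 in Bottom enterocyte-like, 1 in CD8/gamma delta T-like and 2 in BEC-like cells. In T cells 9 genes were called with a 20% mitochondrial limit and 0 without TMM. In Bottom enterocyte-like cells 2 genes were called with the cells led by Fabp6 alone, a choice made after seeing the data. The cause was not tested.

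The replicate numbers gave no known pairing. The correlation of the deviations of same-numbered mice ran from -0.497 in all kept cells to 0.211 in epithelial cells. With 2 mice in each group it only turns its sign for the crossed pairing, so it cannot show whether mice were paired. With the replicate number as a block, 12 genes were called in T, 33 in B lineage, 62 in Bottom enterocyte-like, 6 in BEC-like, 2 in epithelial, 1 in CD8/gamma delta T-like and 1 in Follicular B-like cells. The log2 fold change of Ccr9 in all kept cells was then 0.018, and Ccr9 was not called. With the crossed pairing as a block, chosen after seeing the data, the counts were 58 in Bottom enterocyte-like, 5 in Follicular B-like, 4 in Crypt-like, 1 in CD8/gamma delta T-like, 1 in epithelial and 0 in T cells. The log2 fold change was 0.011 for Ccr9 in all kept cells and 0.046 for Ccr7 in B lineage cells, and neither was called.

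Leaving out each mouse in turn gave 0 calls each time in all kept cells, 0 to 15 in epithelial, 5 to 69 in T, 8 to 82 in B lineage, 0 to 16 in Follicular B-like, 0 to 1357 in Bottom enterocyte-like, 15 to 72 in CD8/gamma delta T-like, 7 to 395 in Macrophage-like, 1 to 40 in Crypt-like, 12 to 32 in BEC-like and 0 to 48 in Enteric glia-like cells. The highest counts came without EC-Foxc-DKO replicate 1 in epithelial, T, Follicular B-like, Bottom enterocyte-like, CD8/gamma delta T-like and BEC-like cells, without Control replicate 1 in B lineage, Macrophage-like and Enteric glia-like cells, and without Control replicate 2 in Crypt-like cells. Such fits take the spread of the complete group for the lone mouse.

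Among log2 fold changes that turned direction when a mouse was left out, the range in all kept cells was -0.76 to 0.32 for Ccl25, -0.82 to 1.08 for Ccr9, -0.60 to 3.41 for Ccr6, -0.12 to 0.84 for Ccl28, -1.34 to 1.17 for Ccr10, -0.47 to 2.73 for Ccr7, -6.60 to 9.25 for Cxcl13 and -1.12 to 3.08 for Cxcr5. It was -1.72 to 0.94 for Ccl20 and -0.071 to 0.44 for Ccl28 in epithelial cells, -2.32 to 0.80 for Ccr9, -0.38 to 0.89 for Ccr6, -0.80 to 1.16 for Ccr7 and -1.19 to 0.67 for Cxcr5 in B lineage cells, -0.22 to 0.87 for Ccr7 and -0.88 to 0.90 for Cxcr5 in Follicular B-like cells, and -0.31 to 0.079 for Ccl28 in Bottom enterocyte-like cells. Of those that kept their direction, the range was -3.50 to -1.77 for Ccl20 and -12.14 to -3.30 for Ccl21a in all kept cells, -0.70 to -0.18 for Ccl25 in epithelial, -0.67 to -0.21 in Bottom enterocyte-like and -0.72 to -0.038 in Crypt-like cells, 0.052 to 0.22 for Ccl28 in Crypt-like cells, 0.056 to 1.08 for Ccr9 and 0.65 to 2.49 for Ccr7 in T cells, 0.16 to 1.11 for Ccr9 in CD8/gamma delta T-like cells, -2.47 to -0.38 for Ccr10 in B lineage cells and 0.015 to 0.59 for Ccr6 in Follicular B-like cells. In all kept cells the log2 fold change of Ccr9 was 0.0078 without the top doublet scores and 0.083 over all barcodes. That of Ccr10 was 0.012 with the 20% limit and 0.22 over all barcodes. With the 20% limit the log2 fold change of Cxcr5 was 0.064 in B lineage and 0.13 in Follicular B-like cells, where that of Ccr7 was -0.16. Without TMM that of Ccr9 was 0.13 in B lineage cells. With the UMIs of all mice summed, Ccl21a in LEC-like cells was 3733 CPM.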
